A study of Rattus norvegicus with 9 samples.

Results

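The genes Cx3cr1, P2ry12, Tmem119, Csf1r, Trem2, Tyrobp, Itgam, Aif1 and Cd68 mark microglia and were followed through the frontal cortex of adult rats. They were chosen by name as genes that microglia are known for and are 9 of the 37209 genes in the count table. All 9 were typed as mRNA and all 9 were among the 16837 genes with enough reads to be tested. The study asked how maternal separation (MS), a model of early life stress, and electroacupuncture (EA) in adulthood alter the transcriptome of the prefrontal cortex (PFC).

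Total RNA from the frontal cortex of 9 male Wistar rats at an age of 14 weeks was depleted of ribosomal RNA and sequenced, with 3 rats in each group. The Control rats (A1, A2 and A6) stayed undisturbed with their mothers until weaning. The MS rats (B3, B4 and B6) spent 4 h of each day away from the dam between postnatal day (PND) 1 and PND 21. The MS+EA rats (C3, C10 and C16) had the same separation and, from PND 61 to PND 81, needles with electrical current at the points Baihui and Yintang. Control and MS rats were anaesthetised at those times as well, so anaesthesia was common to all 3 groups. A sham acupuncture group was not among the sequenced rats, and neither was an acupuncture group without separation. How the 3 rats of a group were spread over litters was not given, so p-values measure the spread between these rats.

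Microglia are the resident macrophages of the brain. They arise from the yolk sac, depend on signals through the receptor CSF1R for their survival, and keep their identity under TGF-beta and the transcription factor PU.1, which is the product of Spi1. Through CX3CR1 they receive fractalkine (CX3CL1) from neurons, through P2RY12 they sense nucleotides, and through TREM2 with its adaptor TYROBP they respond to lipids and apolipoproteins. Macrophages of the vessel walls and meninges share several of these genes, among them Csf1r, Aif1, Itgam and Cd68. In whole tissue, fewer microglia and less RNA of a gene per microglial cell cannot be told apart.

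The stretches before the start sites of 3 markers are shown because PU.1 is a well-known regulator of myeloid genes, and because Spi1 itself is among the genes compared here. A start site with its 250 upstream bases was listed in RefSeq (build GRCr8) for 5 of the 9 markers, Cx3cr1, Csf1r, Trem2, Itgam and Cd68. The letters GAGGAA, the core of the PU.1 motif, or their reverse complement TTCCTC lay in 4 of these 5 stretches, against 23.3% of 33469 promoters of the same length. Overlap with other motifs was not examined. Capitals mark these 6 letters, and the sequences are written 5′ to 3′ on the strand of the gene. The Itgam stretch (chr1:192089342-192089591, plus strand) held one match in each orientation, with first bases 151 and 39 bases before the start. The Trem2 stretch (chr9:20151780-20152029, minus strand) held a match 29 bases before the start, and the Cx3cr1 stretch (chr8:128677067-128677316, minus strand) held none. In the stretches not shown, Csf1r had matches at 229 and 95 bases and Cd68 had one at 27 bases before the start.
Itgam: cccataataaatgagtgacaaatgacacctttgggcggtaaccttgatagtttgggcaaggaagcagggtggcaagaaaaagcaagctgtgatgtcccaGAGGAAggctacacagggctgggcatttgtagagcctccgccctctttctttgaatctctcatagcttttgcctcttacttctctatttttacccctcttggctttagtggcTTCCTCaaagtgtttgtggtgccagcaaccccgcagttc
Trem2: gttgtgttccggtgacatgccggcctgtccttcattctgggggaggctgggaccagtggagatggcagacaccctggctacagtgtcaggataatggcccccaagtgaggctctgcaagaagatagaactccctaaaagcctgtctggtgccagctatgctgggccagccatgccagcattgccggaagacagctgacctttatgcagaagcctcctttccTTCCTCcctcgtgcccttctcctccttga
Cx3cr1: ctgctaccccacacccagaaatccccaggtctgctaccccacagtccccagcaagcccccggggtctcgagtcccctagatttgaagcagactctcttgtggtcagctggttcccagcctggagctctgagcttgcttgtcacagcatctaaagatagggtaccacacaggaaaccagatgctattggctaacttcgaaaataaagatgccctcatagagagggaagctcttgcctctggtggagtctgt

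The deposited values are numbers of reads per gene. Totals per rat were between 16153292 and 19007907 in Control rats, between 16106381 and 17243320 in MS rats and between 12479905 and 14913736 in MS+EA rats, so the MS+EA libraries were the shallowest. Levels are given as CPM, counts per 1000000 of the library size after TMM scaling, which edgeR uses to make libraries comparable. Log2 fold changes with standard errors (SE) and p-values come from edgeR's quasi-likelihood test on all 9 rats, and adjusted p-values are Benjamini-Hochberg values over the 16837 genes. A gene was called different at an adjusted p under 0.05 together with a fold change above 1.5. An exact permutation test of 3 rats against 3 gives no two-sided p under 0.1. The libraries had reads of neuron and astrocyte markers, with summed levels of 7664 to 9412 CPM for 10 neuron markers and 4508 to 5709 CPM for 9 astrocyte markers. The 9 microglial markers summed to 196 to 266 CPM. CPM is not scaled to gene length, so levels were compared between rats and not between genes.

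None of the 9 markers was called different in any of the 3 comparisons. The background of called genes was 0.0238% of genes between MS and Control rats, 0.0178% between MS+EA and MS rats, and 1.37% between MS+EA and Control rats. Mean levels of all 9 markers were lower in MS than in Control rats by small amounts. In MS+EA rats, 7 of 9 were lower than in Control rats and 5 of 9 lower than in MS rats. The one marker with an unadjusted p under 0.05 was Tyrobp, in both comparisons of the MS+EA rats. It did not pass adjustment over all genes. The MS+EA group was compared with MS and with Control rats, and the MS group stood in 2 of the 3 comparisons, so the comparisons share rats and are not independent of each other.

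**Figure D1:**
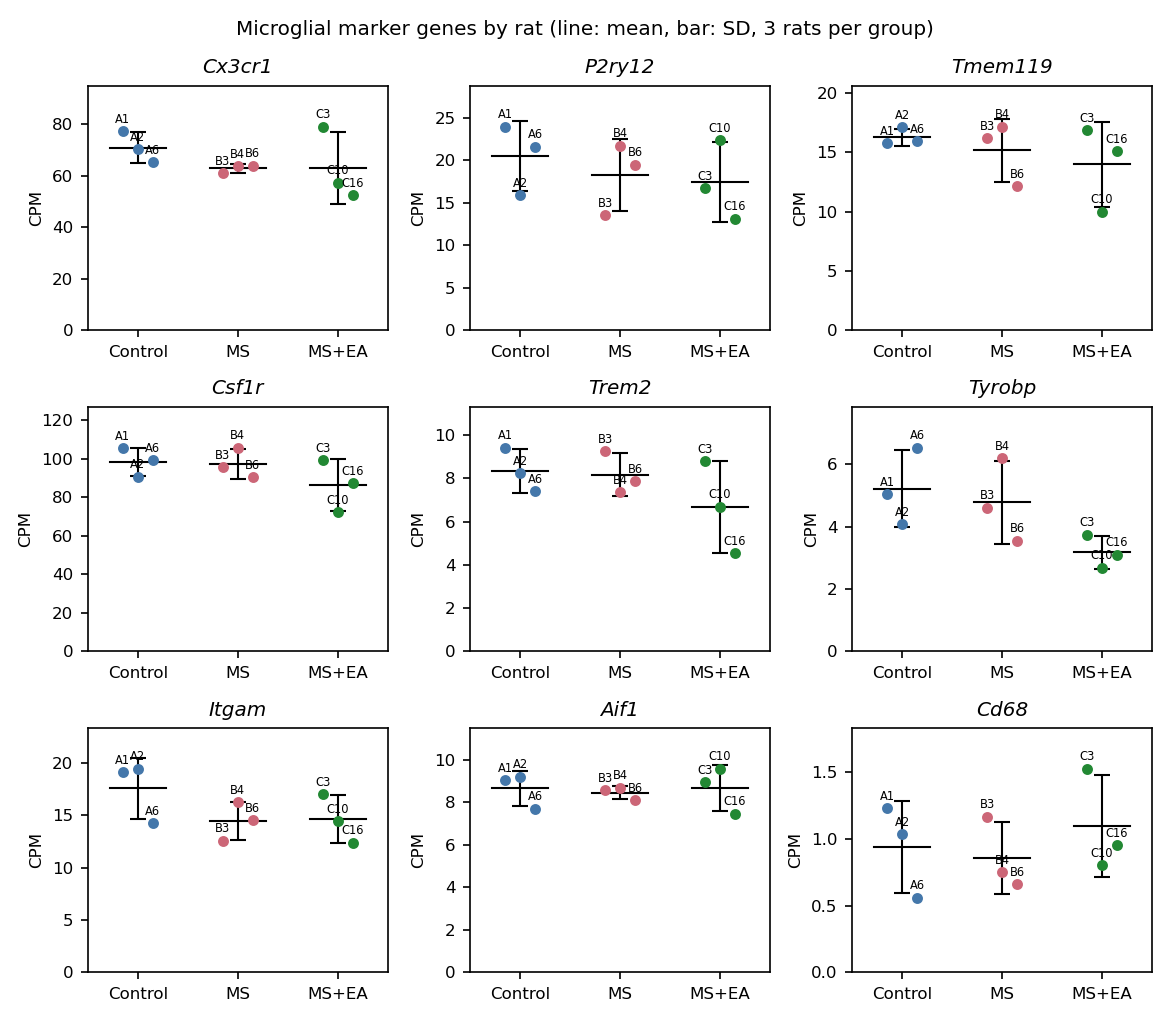
Level of each microglial marker in CPM (vertical axis, from 0) in the rats of the Control, MS and MS+EA groups. Points are single rats with their names, the long line is the group mean and the bar the SD over 3 rats. The groups overlap in every panel apart from Cx3cr1 between Control and MS, where the MS points end at 64.0 below the lowest Control point of 65.2, and Tyrobp between Control and MS+EA, where the MS+EA points end at 3.75 below the lowest Control point of 4.09.

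Surface receptors of resting microglia made up 4 of the markers. Cx3cr1, the fractalkine receptor, was at 77.3, 70.2 and 65.2 CPM in Control rats A1, A2 and A6, at 60.9, 63.8 and 64.0 CPM in MS rats B3, B4 and B6, and at 79.0, 57.4 and 52.5 CPM in MS+EA rats C3, C10 and C16. All MS rats lay below all Control rats, while the MS+EA group held both the highest and the lowest rat of the 9. Its log2 fold change was -0.17 (SE 0.126) in MS against Control rats (edgeR, adjusted p = 0.659) with an interval from -0.45 to 0.10. Groups that did not overlap, with the first one lower, were found for 7.53% of genes in that comparison, and Cx3cr1 was the 1 marker of 9 among them. The difference was 0.00 (SE 0.127) in MS+EA against MS rats and -0.17 (SE 0.126) against Control rats. By mean level the order was Control, MS+EA and MS, with the last pair at 63.0 CPM ± 14.1 and 62.9 CPM ± 1.74 (SD, n = 3).

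P2ry12, the nucleotide receptor that steers microglial processes, was at 23.9, 15.9 and 21.6 CPM in Control rats, 13.5, 21.7 and 19.5 CPM in MS rats, and 16.7, 22.4 and 13.1 CPM in MS+EA rats. Each group held lower and higher rats, and all groups overlapped. The largest of its 3 differences was -0.23 (SE 0.215) on the log2 scale in MS+EA against Control rats (edgeR, adjusted p = 0.568). P2ry12 lies within the span of Med12l in the RefSeq annotation, and Cx3cr1 overlaps the lncRNA gene LOC134480114. The strand setting of the counting was not given, so reads of such pairs may have been shared. Med12l, which codes for a Mediator subunit, was at 45.4 to 51.2 CPM in Control, 45.6 to 48.8 CPM in MS and 40.4 to 45.0 CPM in MS+EA rats. Its difference in MS+EA against Control rats was -0.21 (SE 0.0809) on the log2 scale (edgeR, adjusted p = 0.142).

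Tmem119, a membrane protein that sets microglia apart from other macrophages, was at 15.7, 17.1 and 15.9 CPM in Control rats, 16.2, 17.1 and 12.1 CPM in MS rats, and 16.9, 9.98 and 15.1 CPM in MS+EA rats. The Control rats lay close together, and B6 and C10 were the lowest rats of their groups and of all 9. Tmem119 had a log2 fold change of -0.10 (SE 0.180) in MS and -0.22 (SE 0.182) in MS+EA rats against Control rats (edgeR, adjusted p = 0.888 and 0.519). Csf1r, the receptor for the growth factors CSF1 and IL-34, had the most reads of the 9 markers, 1079 to 1970 per rat. It was at 105, 90.8 and 99.3 CPM in Control rats, 95.9, 106 and 90.5 CPM in MS rats, and 99.5, 72.3 and 87.5 CPM in MS+EA rats. C10 and C16 lay below every other rat and C3 lay among the Control rats. The Csf1r difference was -0.02 (SE 0.106) in MS against Control rats, -0.17 (SE 0.107) in MS+EA against MS rats and -0.19 (SE 0.107) in MS+EA against Control rats on the log2 scale (edgeR, adjusted p = 0.975, 0.537 and 0.322). All 3 intervals of the Csf1r difference lay between -0.42 and 0.21, inside a change of 1.5-fold in either direction.

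Trem2 and Tyrobp code for a receptor and the adaptor through which it signals. Trem2 was at 9.42, 8.23 and 7.40 CPM in Control rats, 9.27, 7.38 and 7.88 CPM in MS rats, and 8.81, 6.70 and 4.53 CPM in MS+EA rats. C16 and C10 were the lowest rats, and C3 was above 2 of 3 Control rats and 2 of 3 MS rats. The log2 fold change of Trem2 was -0.03 (SE 0.209) in MS against Control rats, -0.29 (SE 0.215) in MS+EA against MS rats and -0.32 (SE 0.214) in MS+EA against Control rats (edgeR, adjusted p = 0.977, 0.617 and 0.409).

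Tyrobp had the largest differences among the markers in both comparisons of the MS+EA rats. It was at 5.03, 4.09 and 6.53 CPM in Control rats, from 94, 67 and 105 reads. In MS rats it was at 4.61, 6.19 and 3.55 CPM, from 79, 99 and 59 reads. In MS+EA rats it was at 3.75, 2.68 and 3.10 CPM, from 54, 40 and 39 reads. All MS+EA rats were below all Control rats, and the MS rat B6 lay within the MS+EA range. The mean was 3.18 CPM ± 0.537 in MS+EA rats and 5.21 CPM ± 1.23 in Control rats (SD, n = 3). The fitted level in MS+EA rats was 0.610 times that of Control rats (interval 0.413 to 0.900), a log2 fold change of -0.71 (SE 0.259, edgeR unadjusted p = 0.0167, adjusted p = 0.123). Against MS rats the log2 fold change was -0.59 (SE 0.260, edgeR unadjusted p = 0.0421, adjusted p = 0.381). A lower level at an unadjusted p under 0.05 was found for 10.6% and 6.42% of all genes in these comparisons, so 1 marker of 9 was near the background. Groups that did not overlap, with MS+EA lower than Control rats, were found for 12.9% of genes. In MS against Control rats, Tyrobp differed by -0.13 (SE 0.248) on the log2 scale (edgeR, adjusted p = 0.899), and no marker had an unadjusted p under 0.05, where 3.55% of all genes were lower.

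The remaining markers are also found in other macrophages. Itgam, the alpha chain of the complement receptor CD11b/CD18, was at 19.1, 19.5 and 14.2 CPM in Control rats, 12.6, 16.3 and 14.6 CPM in MS rats, and 17.0, 14.5 and 12.4 CPM in MS+EA rats. A1 and A2 were above all other rats, and A6 lay among the MS and MS+EA rats. On the log2 scale Itgam differed by -0.28 (SE 0.157) in MS and by -0.27 (SE 0.159) in MS+EA rats against Control rats (edgeR, adjusted p = 0.541 and 0.348). Aif1 codes for IBA1, the actin-binding protein by which microglia are commonly stained. It was at 9.05, 9.21 and 7.71 CPM in Control rats, 8.57, 8.69 and 8.12 CPM in MS rats, and 8.95, 9.58 and 7.47 CPM in MS+EA rats. The 3 groups covered nearly the same range, and the 3 log2 fold changes were -0.03 (SE 0.145), 0.04 (SE 0.146) and 0.00 (SE 0.146). Their intervals ran from -0.35 to 0.35, so a change of 1.5-fold was outside them.

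Cd68, a lysosomal protein that rises in phagocytic cells, had few reads, 9 to 23 per rat. It was at 1.23, 1.04 and 0.560 CPM in Control rats, 1.17, 0.751 and 0.661 CPM in MS rats, and 1.53, 0.804 and 0.954 CPM in MS+EA rats. All groups overlapped, with A6 the lowest and C3 the highest rat. For Cd68 the log2 fold change was -0.14 (SE 0.427) in MS against Control rats and 0.34 (SE 0.430) in MS+EA against MS rats, with intervals from -1.06 to 0.79 and from -0.59 to 1.28. A difference of 1.5-fold in Cd68 was not detectable at this depth.

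**Figure D2:**
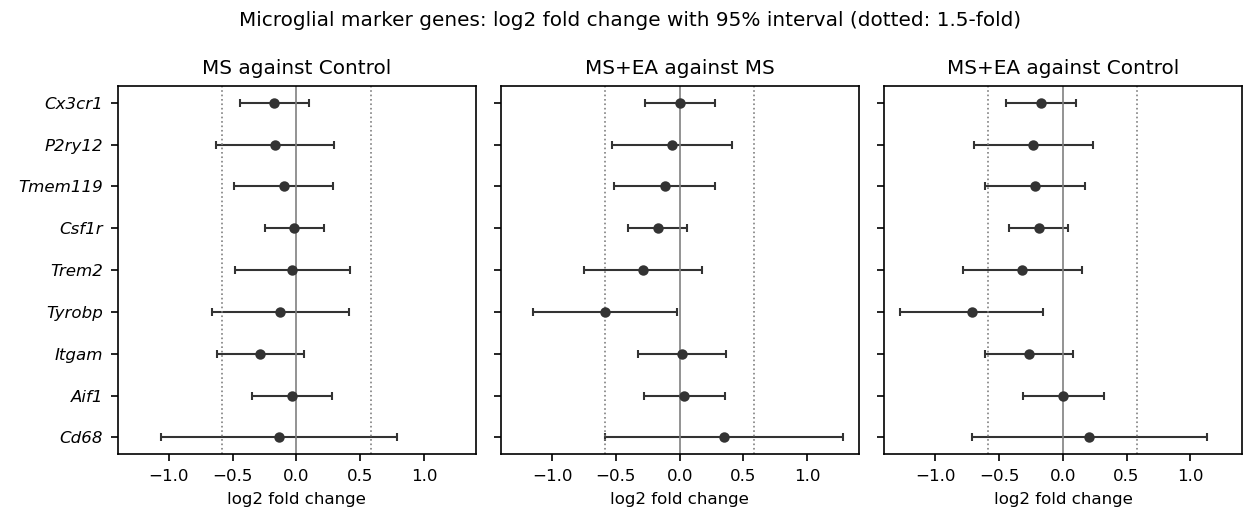
Log2 fold change of each marker (points) with its 95% interval (bars) in the 3 comparisons. Solid lines mark 0 and dotted lines a 1.5-fold change in either direction. Only the 2 Tyrobp intervals of the MS+EA group, from -1.15 to -0.02 and from -1.27 to -0.15, leave out 0, and the Cd68 intervals are the widest.

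The median log2 fold change over the 9 markers was -0.13 in MS against Control rats, -0.06 in MS+EA against MS rats and -0.22 in MS+EA against Control rats. Over all tested genes the medians were -0.00135, 0.000586 and 0.00553. The 9 of 9, 5 of 9 and 7 of 9 markers with a log2 fold change under 0 stood beside 50.3%, 49.9% and 49.1% of all genes. The markers share their cells, so they are not separate measurements of a group. Without MS rat B6 the count of 9 of 9 became 5 of 9 and the median of -0.13 became -0.00484.

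The median spread of the markers was widest among the MS+EA rats. Their median coefficient of variation was 12.2% in Control rats and 12.7% in MS rats, and 22.4% in MS+EA rats. Over all tested genes it was 10.2%, 10.1% and 12.3%. For Cx3cr1 it was 22.4% in MS+EA rats, where counting error alone gives 3.44%. For Trem2 it was 32.0% with 10.9% from counting. Tyrobp, Itgam and Cd68 did not follow, with 16.9%, 15.7% and 34.8% in MS+EA rats and 23.6%, 16.6% and 36.7% in Control rats. C3 was the highest MS+EA rat in 7 of 9 markers, against 33.6% of all genes. C10 was the lowest MS+EA rat in 4 markers and C16 in 5, against 33.6% and 32.6% of all genes. C16 was among the lowest 3 of all rats in 8 of 9 markers, and A1 was among the highest 3 in 8 of 9. The shares of all genes for these ranks over all rats were not computed. The summed level of the markers was 266, 236 and 238 CPM in Control rats, 223, 248 and 221 CPM in MS rats, and 252, 196 and 197 CPM in MS+EA rats. C10 and C16 were the lowest of the 9 rats on this sum and C3 the second highest. C3 also had the highest summed level of the oligodendrocyte markers, 4313 CPM against 1887 to 3322 CPM in the other 8 rats, and the lowest of the neuron markers, 7664 CPM against 8524 to 9412 CPM. The part of these differences in tissue makeup in the marker levels was not tested.

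**Figure D3:**
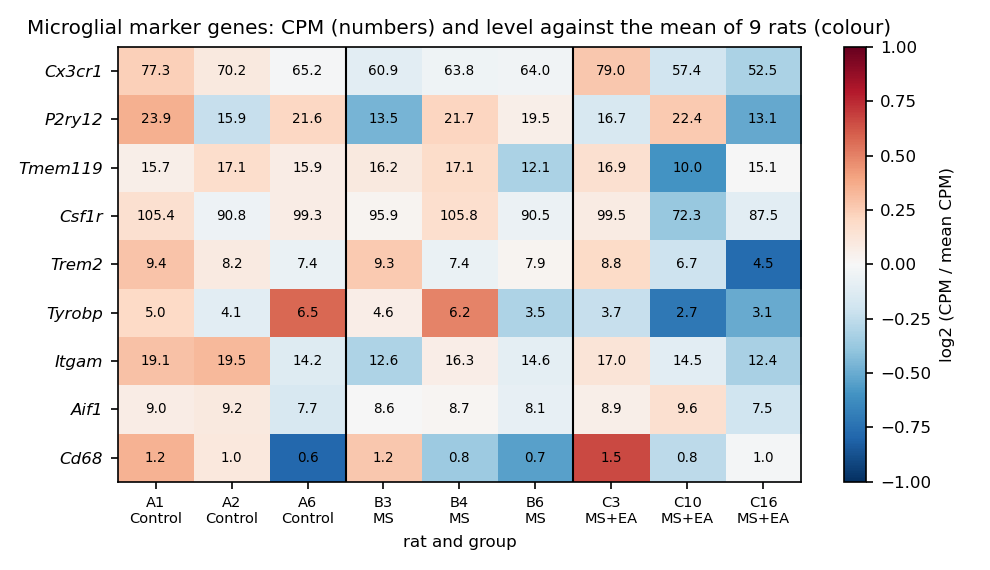
Levels of the 9 markers (rows) in the 9 rats (columns, in groups parted by black lines). Numbers are CPM and colours the log2 ratio to the mean of the 9 rats. Most cells of C16 and C10 are blue (lower) and most of A1 and C3 are red (higher), so that the MS+EA group holds rats of both kinds.

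C3 was the highest MS+EA rat in 7 of 9 markers, so its omission lowers most MS+EA means by the choice of rat. Over the omission of each rat in turn, 0 to 5 markers were lower in MS+EA than in Control rats at an unadjusted p under 0.05 (edgeR). Against MS rats the range was 0 to 3. Without C3, the MS+EA group moved further from the others. In MS+EA against Control rats 5 markers were then lower at an unadjusted p under 0.05 (Cx3cr1, Csf1r, Trem2, Tyrobp and Itgam), where the background was 10.3% of 17121 genes. Cx3cr1 reached a log2 fold change of -0.36 (SE 0.0899, edgeR adjusted p = 0.0403), below the 1.5-fold threshold, and 1.79% of genes were lower at an adjusted p under 0.05. Between MS+EA and MS rats 3 markers were lower at an unadjusted p under 0.05 (Csf1r, Trem2 and Tyrobp), against 6.23% of genes. The median over the markers became -0.36 against Control and -0.19 against MS rats. No marker was called without C3, since none passed both thresholds. Without C16, the median was -0.11 against Control rats and 0.10 against MS rats.

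Across the 9 rats most markers varied in the same sense. Of the 36 pairs of markers 30 had a Pearson correlation of log2 CPM above 0, with a median of 0.36 and a range from -0.40 to 0.83. After subtraction of the group means 28 of 36 were above 0, with a median of 0.34. The highest values were those of Tmem119 with Csf1r and of Csf1r with Tyrobp, both 0.83, and of Cx3cr1 with Itgam, 0.82. P2ry12 had -0.31 with Tmem119 and 0.11 with Csf1r, but 0.34 with Cx3cr1 and 0.44 with Itgam. The lowest pair was P2ry12 with Cd68, -0.40. Aif1 was below 0 with Tmem119 (-0.18), Csf1r (-0.20) and Tyrobp (-0.19). How often pairs of other genes were above 0 was not computed. These values describe 9 libraries whose depth and tissue makeup are shared by all genes. The genes outside the 9 whose log2 CPM was most like the mean of the standardised markers over the 9 rats were Bin2 (r = 0.96), Pgap2 (0.96), Gcn1l1 (0.95), Slc39a11 (0.95) and Acads (0.94). They were picked as the highest among all tested genes over only 9 rats, so high values follow in part from the choice. Bin2 is itself known from microglia and blood cells. It was at 5.47 to 6.37 CPM in Control rats, 5.23 to 5.69 CPM in MS rats, and 6.45, 4.56 and 3.97 CPM in C3, C10 and C16.

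The ligands and signalling partners of the markers were followed in a list of 22 genes, of which 20 were tested. In MS against Control rats 3 were higher and none lower at an unadjusted p under 0.05, where 7.06% of all genes were higher and 3.55% lower, and none was called by edgeR. In MS+EA against MS rats 2 were lower and none higher, where 6.42% of all genes were lower and 6.01% higher, and none was called by edgeR. In MS+EA against Control rats 4 were higher and 3 lower, where 11.9% of all genes were higher and 10.6% lower, and 1 was called. The list's median log2 fold changes were 0.02, -0.09 and -0.04.

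Tgfbr1, which codes for the type I receptor of TGF-beta and is expressed in many brain cells, was the called gene. It was at 41.7, 42.1 and 40.5 CPM in Control rats, 57.4, 65.5 and 62.6 CPM in MS rats, and 69.4, 59.7 and 75.6 CPM in MS+EA rats. All 6 separated rats were above all Control rats. Groups in this order without overlap were found for 10% of genes in MS and for 13% in MS+EA against Control rats. The log2 fold change was 0.72 (SE 0.0919) in MS+EA against Control rats (edgeR, adjusted p = 0.00397). In MS against Control rats it was 0.58 (SE 0.0916, adjusted p = 0.0578), which missed both thresholds, and MS+EA and MS rats differed by 0.14 (SE 0.0906, adjusted p = 0.548). Tgfbr2, the type II receptor, was higher in MS than in Control rats by 0.60 (SE 0.167, adjusted p = 0.189), and the ligand Tgfb1 differed by -0.23 (SE 0.235, adjusted p = 0.770), both on the log2 scale and neither called by edgeR. Cd200r1, the inhibitory receptor of CD200, had a log2 fold change of 0.60 (SE 0.264, adjusted p = 0.456) in MS and 0.74 (SE 0.265, adjusted p = 0.117) in MS+EA against Control rats by edgeR, with levels of 2.87 to 3.96 CPM in Control, 3.62 to 6.94 CPM in MS and 4.61 to 7.28 CPM in MS+EA rats. Entpd1, the ectonucleotidase CD39, had 2 to 41 reads per rat. It was at 0.122 to 0.684 CPM in Control rats and at 2.84, 2.55 and 0.159 CPM in MS+EA rats, a log2 fold change of 2.38 (SE 0.832, edgeR adjusted p = 0.112) with groups that overlapped.

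Cx3cl1, the ligand of the fractalkine receptor, was at 379, 343 and 366 CPM in Control rats, 387, 395 and 433 CPM in MS rats, and 353, 312 and 280.05 CPM in MS+EA rats. All MS rats were above all Control rats, an order found for 10% of genes, and C10 and C16 were below all Control rats. The difference between MS+EA and MS rats was -0.36 (SE 0.0849) on the log2 scale, with groups that did not overlap (edgeR, unadjusted p = 9.8e-04, adjusted p = 0.197). Groups in this order without overlap were found for 9.6% of genes. Sirpa codes for the receptor of the signal CD47 and is abundant in neurons as well as in microglia. It was at 530.3, 491 and 496 CPM in Control rats, 493, 479.6 and 494 CPM in MS rats, and 429, 423 and 396 CPM in MS+EA rats. All MS+EA rats were below all others. MS+EA rats lay below all Control rats for 12.9% of genes and below all MS rats for 9.6%. The log2 fold change of Sirpa against Control rats was -0.28 (SE 0.0615, edgeR adjusted p = 0.0252), under the 1.5-fold threshold. Against MS rats it was -0.23 (SE 0.0615, adjusted p = 0.226 by edgeR). Without the fold threshold, 2.19% of genes were lower in MS+EA than in Control rats at an adjusted p under 0.05. For the CSF1R ligands Csf1 and Il34 the 6 log2 fold changes lay between -0.06 and 0.10. For Cd200 and Itgb2, which code for the ligand of an inhibitory microglial receptor and for the partner chain of Itgam, they lay between -0.11 and 0.21. Hcst, another adaptor of this kind, and the adenosine receptor Adora3 had 4 and 1 reads in all 9 rats and were not tested.

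Of 11 transcription factors listed for microglia, all tested, none was called in any comparison by edgeR. Whole tissue does not show which cells their reads came from, so a difference in Bhlhe41 or another factor need not lie in microglia. At an unadjusted p under 0.05 there was 1 lower in MS than in Control rats (Bhlhe41), 1 higher (Bhlhe41) and 1 lower (Spi1) in MS+EA than in MS rats, and 1 lower (Spi1) in MS+EA than in Control rats, counts to be read against the background shares given for the ligands and partners. Bhlhe41 had a log2 fold change of -0.31 (SE 0.116, adjusted p = 0.363) in MS against Control rats and 0.36 (SE 0.116, adjusted p = 0.274) in MS+EA against MS rats by edgeR. Spi1, the gene of PU.1, was at 4.50, 4.09 and 4.91 CPM in Control rats, 3.44, 4.94 and 4.99 CPM in MS rats, and 3.40, 2.28 and 3.58 CPM in MS+EA rats, from 34 to 84 reads per rat. The MS+EA rats were below all Control rats, an order found for 12.9% of genes, and overlapped with B3 of the MS rats. The log2 fold change was -0.55 (SE 0.237, edgeR unadjusted p = 0.0385, adjusted p = 0.194) against Control rats and -0.53 (SE 0.237, unadjusted p = 0.0433, adjusted p = 0.384) against MS rats.

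**Figure D4:**
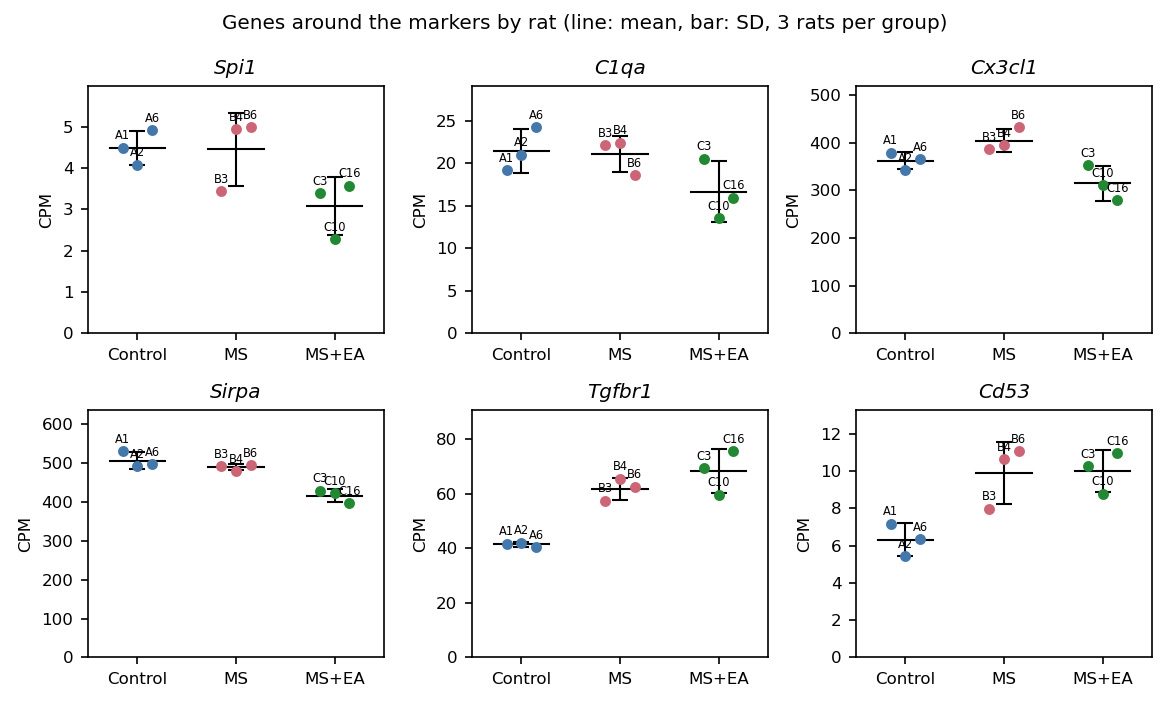
Levels in CPM (vertical axis, from 0) of 6 genes around the markers, with points for rats, lines for group means and bars for the SD over 3 rats. Tgfbr1 and Cd53 are higher in all MS and MS+EA rats than in all Control rats, Sirpa is lower in the 3 MS+EA rats than in the other 6, and the MS+EA rats of Spi1 end at 3.58 below the lowest Control rat at 4.09. Of all genes, 10% in MS and 13% in MS+EA rats were higher without overlap with Control rats. MS+EA rats were lower without overlap for 12.9% of genes against Control and for 9.6% against MS rats.

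Other genes of resting microglia came from a list of 45, of which 40 were tested. Their median log2 fold changes were -0.05, -0.11 and -0.12 in MS against Control, MS+EA against MS and MS+EA against Control rats, with 27, 28 and 27 of 40 under 0. At an unadjusted p under 0.05, 3, 0 and 1 were higher and 0, 2 and 5 were lower, where 7.06%, 6.01% and 11.9% of all genes were higher and 3.55%, 6.42% and 10.6% lower, and 1 gene was called in all. That gene was Cd53, a tetraspanin of leukocytes and microglia. It was at 7.17, 5.43 and 6.34 CPM in Control rats, 7.99, 10.6 and 11.1 CPM in MS rats, and 10.3, 8.78 and 11.0 CPM in MS+EA rats. All separated rats were above all Control rats, where 10% of genes in MS and 13% in MS+EA rats were higher without overlap with Control rats. The log2 fold change of Cd53 in MS+EA against Control rats was 0.66 (SE 0.173, edgeR adjusted p = 0.0460). The call was lost when any single rat other than B3 was left out, with bias-adjusted deviances and with only the 6 rats compared, at adjusted p-values up to 0.132. In MS against Control rats it was 0.64 (SE 0.172, adjusted p = 0.186).

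Among the complement genes that microglia supply, C1qa was at 19.2, 21.0 and 24.2 CPM in Control rats, 22.1, 22.5 and 18.6 CPM in MS rats, and 20.5, 13.5 and 15.98 CPM in MS+EA rats. Its log2 fold change was -0.36 (SE 0.153) in MS+EA against Control rats (edgeR, adjusted p = 0.183), beside -0.44 (SE 0.174, adjusted p = 0.160) for C1qc, and that of C1qa in MS+EA against MS rats was -0.34 (SE 0.153, adjusted p = 0.394). Again C3 was the highest and C10 the lowest MS+EA rat of C1qa. Siglec5 and Ptprc, a lectin and the pan-leukocyte phosphatase CD45, were higher in all MS rats than in all Control rats, an order found for 10% of genes. Their log2 fold changes were 1.03 (SE 0.274) and 0.50 (SE 0.204), with adjusted p = 0.186 and 0.400 by edgeR. Siglec5 differed by -0.61 (SE 0.271, edgeR adjusted p = 0.382) in MS+EA against MS rats. Coro1a and Rnase4, which code for an actin-binding protein of leukocytes and a secreted ribonuclease, had log2 fold changes of -0.25 (SE 0.103) and -0.35 (SE 0.148) in MS+EA against Control rats (edgeR, adjusted p = 0.177 and 0.181).

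Genes of activated and disease-associated microglia came from a list of 45, of which 32 were tested and none was called by edgeR. Their median log2 fold changes were 0.12, -0.03 and 0.22, and 4, 0 and 3 were higher and 0, 1 and 3 lower at an unadjusted p under 0.05, where the shares of all genes were those given for the resting genes. Reads differed widely between the inflammatory genes. Il1b had 15, Tnf 1, Il6 14, Nos2 4 and Ccl2 18 reads summed over the 9 rats, too few for any comparison, while Ptgs2 had 7385, Myd88 785, Nlrp3 705, Tlr2 587 and Tlr4 560. Whole tissue does not show which cells the reads of Ptgs2 or of the other genes in this list came from, so they are not a measure of microglia alone. Of the disease-associated genes, Cst7 had 5 reads, Clec7a 37 and Itgax 55, while Gpnmb had 1855, Lpl 1560 and Cd9 2986. Higher in MS than in Control rats at an unadjusted p were Casp1 (log2 fold change 0.92, adjusted p = 0.280), Lyz2 (0.70, adjusted p = 0.280), Cd74 (1.90, adjusted p = 0.374) and Il18 (0.75, adjusted p = 0.394) in edgeR's test. Cd74, the invariant chain of MHC class II, was at 12.4 CPM in B4 and at 1.11 and 2.83 CPM in the other MS rats, against 1.31 to 1.65 CPM in Control rats. Its log2 fold change was 1.83 (SE 0.741, edgeR adjusted p = 0.164) in MS+EA against Control rats. Lyz2, or lysozyme, was at 92.4 CPM in B4, 37.8 CPM in B3 and 64.2 CPM in B6, against 36.8 to 43.4 CPM in Control rats. The lysosomal protease Ctsd was at 143 to 161 CPM in Control rats, 146 to 163 CPM in MS rats and 119 to 135 CPM in MS+EA rats. Its log2 fold change was -0.28 (SE 0.0753, edgeR adjusted p = 0.0514) in MS+EA against Control rats and -0.28 (SE 0.0753, adjusted p = 0.234) against MS rats, and Ctsd is expressed by neurons and other cells too. Ctsb, another lysosomal protease, and the protease inhibitor Timp2 had log2 fold changes of -0.21 (SE 0.0818) and -0.26 (SE 0.0812) in MS+EA against Control rats (edgeR, adjusted p = 0.145 and 0.0786).

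B4 also stood apart in genes of other cells. It had the highest summed level of the endothelial and mural markers, 411 CPM against 238 to 338 CPM in the other 8 rats, and of the subcortical and striatal neuron markers, 189 CPM against 124 to 169 CPM. In the latter list Oxt and Avp reached up to 16.1 and 31.5 CPM in MS rats. Their highest levels were 1.34 and 1.55 CPM in Control and 0.0694 and 0.871 CPM in MS+EA rats. Of the 8 genes in that list, 5 had a log2 fold change under 0 in MS against Control rats. Of 13 perivascular and border macrophage markers 8 were tested, and all 8 had a log2 fold change above 0 in MS against Control rats, with a median of 0.64 and no call by edgeR. In that comparison 50.3% of all genes lay under 0. These markers share their cells and are not separate measurements. Dab2 alone had an unadjusted p under 0.05 (log2 fold change 1.27, adjusted p = 0.233), and its log2 fold change was 0.58 without B4 (edgeR, adjusted p = 0.685). Dab2, an endocytic adaptor, differed by 1.13 (SE 0.385, edgeR adjusted p = 0.104) in MS+EA against Control rats. The summed level of the list was 31.8, 33.1 and 39.5 CPM in Control rats, 35.3, 112 and 49.8 CPM in MS rats, and 57.1, 38.1 and 81.4 CPM in MS+EA rats. Dab2 gave the largest part of this sum, with means of 14.7 CPM in Control, 35.4 CPM in MS and 32.2 CPM in MS+EA rats. Mrc1, the mannose receptor, was at 6.13 CPM in B4 and at 1.34 to 4.05 CPM in all other rats. Of the untested markers Cd209a had 0 reads, Ms4a7 11, Pf4 42 and Folr2 56 over all rats. Red blood cell genes summed to 94.7 to 199.9 CPM in Control, 223 to 307 CPM in MS and 212 to 306 CPM in MS+EA rats. Of the 9 in that list 6 were tested, and 4 were higher in MS than in Control rats at an unadjusted p under 0.05, where 7.06% of all genes were higher, with none called by edgeR. Blood leukocyte markers were near 0. Of 22 only Cd4, which rat microglia and macrophages also express, was tested, and Mpo, Elane, Cd79a and Klrd1 had 0 reads in all rats. Cd4 was at 10.7 to 17.8 CPM and was highest in B4, with log2 fold changes of -0.39 (SE 0.150, adjusted p = 0.329) against MS and -0.35 (SE 0.150, adjusted p = 0.185) against Control rats in MS+EA rats by edgeR. The part of macrophages, vessels, subcortical tissue and blood in the differences named here was not tested.

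**Figure D5:**
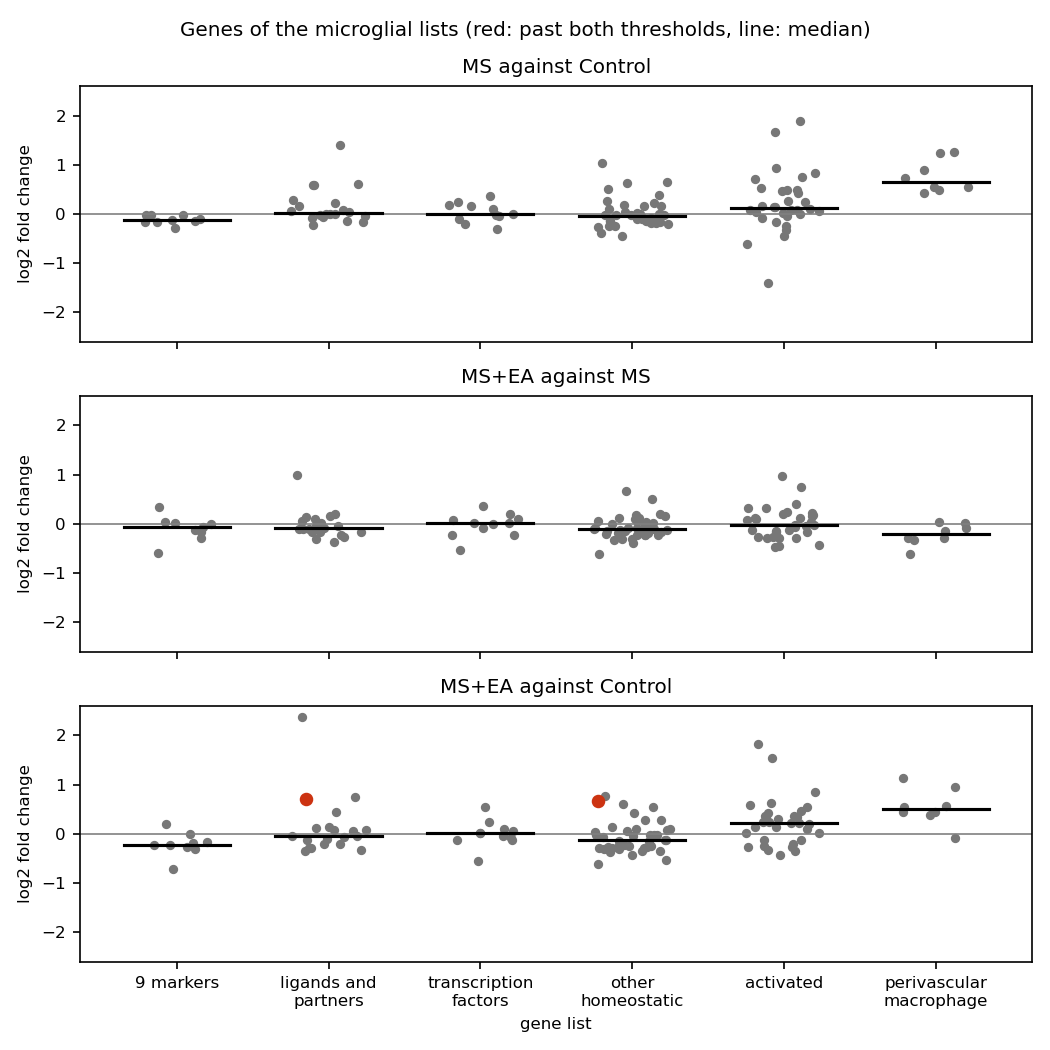
Log2 fold changes (vertical axes) of the tested genes in 6 lists, with points for genes, black lines for list medians and red points for genes past both thresholds. The 9 markers lie in a narrow band near 0, from -0.28 to -0.02 in MS against Control rats, while all 8 macrophage markers lie above 0 there with a median of 0.64. In that comparison 50.3% of all genes lay under 0. The summed macrophage level of MS rat B3, 35.3 CPM, lay within the Control range of 31.8 to 39.5 CPM. The called genes are Tgfbr1 among ligands and partners and Cd53 among other homeostatic genes, both in MS+EA against Control rats.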

How the data were processed

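Total RNA of the frontal cortex from 9 rats was rRNA-depleted and sequenced on a HiSeq X instrument. The authors filtered reads for quality, mapped them to Rnor_6.0 with HISAT2 (2.0.4 in the submitters' processing notes) and deposited raw counts of reads per gene, without normalization. The counting program, its strand setting and its treatment of reads with several locations are not given in the sources used here. Group and rat names came from the labels, and each rat is 1 library. No sequencing batch or date was given.

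Counts were analysed with edgeR 4.0.16 in R 4.3.3. Genes were kept by filterByExpr with a minimum count of 10, libraries were scaled by TMM, and group means were fitted to the 9 rats together by quasi-likelihood. CPM are counts per 1000000 of the scaled library size. The SE was taken as |log2 fold change| over √F, and intervals are 95% intervals from the fit. Calls needed a Benjamini-Hochberg adjusted p under 0.05 over 16837 genes and a fold change above 1.5, the thresholds of the study's methods. The common biological coefficient of variation was 12.7%. The procedure was run on simulated data with the same spread for all genes and changes larger than those of the markers. That run does not show whether changes as small as those of the markers would be found. Correlations between markers used log2 CPM with a prior count of 2. Tables, promoters and plots used Python 3.11.15, pandas 2.3.3, numpy 2.4.6 and matplotlib 3.10.9. RefSeq tables of build GRCr8, which differs from the build of the counts, gave names, neighbours and upstream sequences only. Levels per kilobase, and an order of levels between genes, were not computed, since no transcript lengths of the counted build were used here.

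Members, lists and tests were chosen with earlier results of these data known. The genes named are the 9 markers, in each comparison up to 4 genes of each list with the smallest unadjusted p under 0.05, always Cx3cl1, Csf1, Il34, Tgfb1, Cd200, Itgb2 and Spi1, and the 5 genes most like the markers by correlation. Of the other lists (neurons, astrocytes, oligodendrocytes and their precursors, vessels, subcortical neurons, red blood cells), only summed levels and counts that bear on the markers are given. Their single genes under this rule are not printed, apart from the levels of Oxt and Avp. C1qa beside Control, Mrc1, Med12l and the genes named for their read totals were named after their values were seen. Alternatives were DESeq2 1.42.0 (Wald test), limma 3.58.1 (limma-trend), DESeq2 size factors (RLE), total counts, 2 other filters, bias-adjusted deviances, the 6 rats compared alone, no fold threshold, and the omission of each rat.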

Additional observations from a re-analysis of the deposited data

How the results depend on the processing

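No marker was called in any comparison under any alternative run, DESeq2 and limma-trend included, or without any single rat. The median over the 9 markers in MS against Control rats, -0.13, moved to -0.00484 without B6, and lay between -0.19 and -0.00484 over the omissions of a rat. In MS+EA against MS rats it lay between -0.19 and 0.10, and in MS+EA against Control rats between -0.36 and -0.11. The number of genes called among all those tested varied with the setting. It was 4 in MS against Control rats (3 to 207 over the settings, 2 to 22 with a rat left out), 3 in MS+EA against MS rats (0 to 72, and 1 to 4) and 230 in MS+EA against Control rats (228 to 910, and 71 to 304). With at least 1 count over all rats Lyz2, Cd74, Tgfbr2 and Dab2 passed both thresholds in MS against Control rats, at adjusted p = 0.00773, 0.0228, 0.00676 and 0.00133 by edgeR, as did Cd74, Entpd1 and Dab2 in MS+EA against Control rats (0.0122, 0.0143 and 0.00185). DESeq2 called Tgfbr2 (0.0341) and, without B3, edgeR called Lyz2 and Tgfbr1 (both 0.0462) in MS against Control rats. With only the 6 rats compared or without B4, Cd74 and Dab2 were called in MS+EA against Control rats, as Entpd1 was without C16.

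Signs turned for log2 fold changes near 0. Aif1 in MS+EA against Control rats was at -0.00086 with RLE, -0.00027 with at least 1 count over all rats, -0.000167 with DESeq2 and -0.000922 with limma-trend, and Cx3cr1 in MS+EA against MS rats was at -0.0203 with limma-trend. The cause was not tested. The log2 fold change of some genes also turned when a rat was left out. In MS against Control rats it lay between -0.11 and 0.00712 for Aif1, -0.42 and 0.11 for Cd68, -0.17 and 0.0454 for Csf1, -0.0812 and 0.0342 for Csf1r, -0.0917 and 0.0391 for Il34, -0.18 and 0.10 for Itgb2, -0.33 and 0.00566 for P2ry12, -0.10 and 0.14 for Spi1, -0.20 and 0.0349 for Tmem119, -0.13 and 0.0647 for Trem2 and between -0.35 and 0.0644 for Tyrobp. In MS+EA against MS rats it lay between -0.0413 and 0.13 for Aif1, -0.19 and 0.12 for Cx3cr1, -0.10 and 0.0368 for Il34, -0.0973 and 0.12 for Itgam, -0.29 and 0.10 for P2ry12, -0.21 and 0.29 for Tgfb1 and between -0.27 and 0.0784 for Tmem119. In MS+EA against Control rats it lay between -0.0753 and 0.0968 for Aif1, -0.11 and 0.0713 for Cd200, -0.11 and 0.45 for Cd68 and between -0.0568 and 0.26 for Itgb2.

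No paired analysis was possible because no rat is in more than 1 group and the groups share fewer than 2 replicate numbers. Cd68 and Tyrobp have the fewest reads of the markers, which limits the precision of their values, as do 3 rats per group for all genes.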
